A study of Homo sapiens with 9 samples.

Results

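The genes described here are 10 immediate early genes of the deposited tables, EGR1, EGR2, EGR3, NR4A1, SRF, KLF2, KLF4, KLF6, IER2 and IER5, out of 26485 genes listed. They were chosen by their symbols, with no measured value in the rule but with earlier results of these data known. Each symbol has 1 row in each table. RNA sequencing was performed on MDA-MB-231, a cell line from a human breast cancer that lacks the hormone receptors and HER2. The cells expressed a nonspecific (NS) shRNA, ASAH1 shRNA #1 or ASAH1 shRNA #2, with 3 libraries per group and 9 in all. ASAH1 encodes acid ceramidase, a lysosomal enzyme that splits ceramide into sphingosine and a fatty acid. All cells were grown in the same serum-containing medium, and no acute stimulus is named in the labels. The values are 1 level per library and not a time course after a stimulus. The study's methods do not give the time from the introduction of a hairpin to the collection of RNA.

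Immediate early genes are transcribed within minutes of a growth factor, stress or calcium signal, without new protein synthesis. In the best known route the kinase ERK phosphorylates ternary complex factors such as ELK1, which sit beside the serum response factor SRF on a CArG box, the short AT-rich element that SRF binds. EGR, KLF and NR4A proteins are themselves DNA-binding factors that carry the signal to later genes, whereas IER2 and IER5 belong to a separate family of small nuclear proteins. In breast cancer cells the family is known mainly for its response to serum, EGF and MAPK activity. By immunoblotting, the study reported less phosphorylated ERK in cells with ASAH1 shRNA than with NS shRNA. The RNA levels given here do not measure ERK activity, and its part in the changes below was not tested.

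Reads on genes ran from 23806003 to 49659106 per library, so each member except EGR2, EGR3 and NR4A1 rests on at least 240 reads in every library. ASAH1 itself was lower in all 6 knockdown libraries. Levels are given as CPM, the reads of a gene scaled by TMM (a correction for library size and composition). ASAH1 had 133 to 136 CPM in NS shRNA cells, 38.0 to 41.4 with shRNA #1 and 21.3 to 22.5 with shRNA #2 (limma log2 fold changes of -1.76 ± 0.05 and -2.63 ± 0.06 (SE), adjusted p = 9.49e-09 and 5.42e-10). The knockdown was the deeper with shRNA #2 (edgeR log2 ratio of -0.89, adjusted p = 6.84e-08). Of 5 markers expected in the line, VIM stood between 1257 and 2074 CPM, and CD44, AXL, CAV1 and MSN between 433 and 1331 CPM. Of 5 expected to be low, ESR1, PGR and FOXA1 had at most 6 reads in any library, and GATA3 was present at 15.1 to 26.6 CPM. CDH1, the epithelial cadherin, moved with the hairpins, from 12.0 to 14.3 CPM in NS shRNA cells to 1.02 to 1.68 with shRNA #1 and at most 0.488 with shRNA #2. Among 6 markers of other cell types, PTPRC, CD3E, VWF and ALB had at most 14 reads in any library. CD68 stood at 61.8 to 76.0 CPM in NS shRNA cells, 72.1 to 96.8 with shRNA #1 and 24.1 to 30.9 with shRNA #2, and PECAM1 between 1.17 and 3.02. The part of these markers in the results was not tested. In RNA from whole cultures, fewer cells of a kind and less RNA per cell cannot be told apart.

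The sequences upstream of 4 members are shown because they hold, close to the start site, the SRF element or the EGR element of the pathway. They are RefSeq sequences of GRCh38.p14, each written 5′ to 3′ on the strand of its gene. The first pair covers the 120 bases before the start of EGR1 (chr5:138465359-138465478, plus strand) and the first start of SRF (chr6:43171149-43171268, plus strand). The other pair covers 30 bases around a match upstream of the third start of EGR2 (chr10:62816418-62816447, minus strand) and of the RefSeq start of KLF6 (chr10:3785255-3785284, minus strand). The EGR2 stretch lies inside the span of the gene and overlaps no annotated exon, whereas the KLF6 stretch overlaps the first exon, in its untranslated part, of a GENCODE transcript that starts further upstream. Capitals mark CArG boxes in EGR1, SRF and EGR2 and an EGR site in KLF6.
EGR1: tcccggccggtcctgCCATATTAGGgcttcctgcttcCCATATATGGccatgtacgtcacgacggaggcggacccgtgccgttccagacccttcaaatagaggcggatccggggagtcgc
SRF: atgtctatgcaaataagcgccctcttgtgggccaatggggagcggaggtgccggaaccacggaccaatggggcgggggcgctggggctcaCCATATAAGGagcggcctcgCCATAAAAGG
EGR2: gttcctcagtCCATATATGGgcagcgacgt
KLF6: ggggagccagGCGGGGGCGgagggggaggc

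Of the 10 members, 9 had promoter windows in the RefSeq table, with 13 windows of 250 bases in all. A CArG box was found upstream of 3 of the 9, at 105 to 96 and 83 to 74 bases before the start of EGR1, at 30 to 21 and 10 to 1 bases before the first start of SRF, and at 71 to 62 bases before the third start of EGR2. Over 34788 promoter windows of the same length, 1.17% held a CArG box. This share and those below are per window, whereas the members are counted by gene, some with more than 1 window. An EGR site, GCGGGGGCG or GCGTGGGCG on either strand, was found upstream of KLF2, KLF6 and SRF, against 5.36% of all promoters. GC boxes (GGGCGG on either strand), which overlap the EGR site in all 3 genes, were found for 7 of the 9 and in 42.6% of all promoters. The AP-1 letters TGANTCA and the cyclic AMP response element TGACGTCA were in none of the 13 windows, against 6.59% and 1.64% of all promoters. These are matches of letters and not measured binding.

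**Figure D1:**
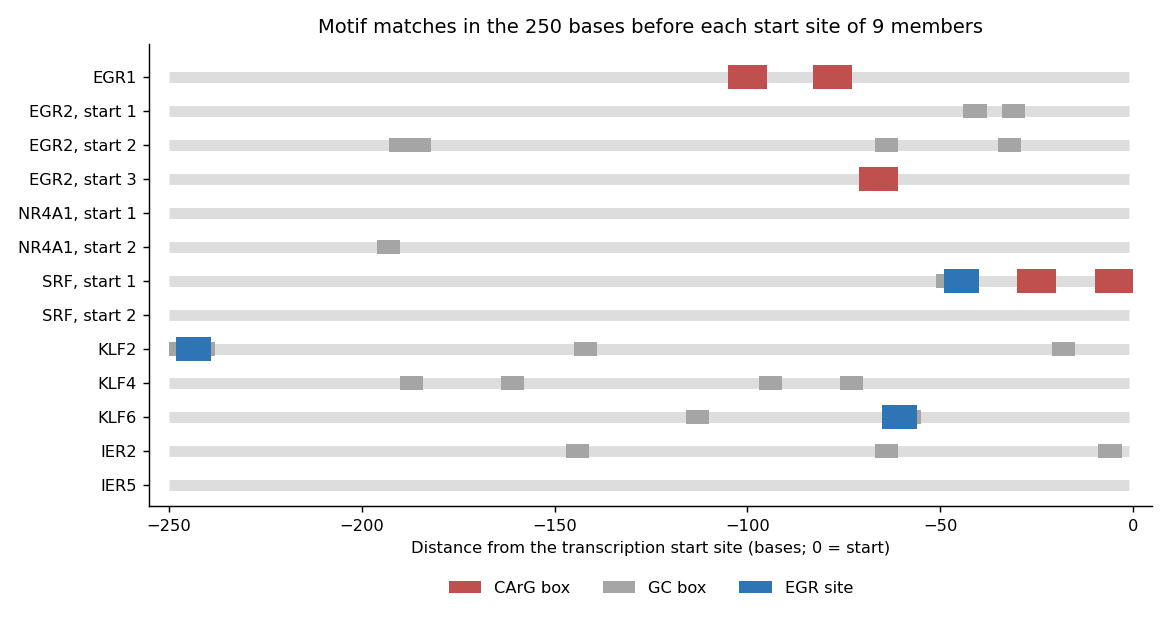
Positions of CArG boxes, EGR sites and GC boxes in the 250 bases before each RefSeq start site of 9 members, with distance from the start in bases on the x axis and a row for each start. EGR1 and SRF have 2 CArG boxes each within 105 bases of the start, and the NR4A1 start 1, SRF start 2 and IER5 rows are empty.

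The members were not equally abundant. On a scale of CPM per kilobase of annotated exon, NS shRNA cells had 76.1 of IER5 and 46.9 of KLF6, followed by IER2 at 26.1, SRF at 21.6 and KLF4 at 16.6. KLF2 at 4.82 and EGR1 at 2.59 came next on this per-kilobase scale, and NR4A1 at 0.141, EGR2 at 0.0874 and EGR3 at 0.00954 were rare. The ranges of the 3 libraries did not overlap between any neighbours in this order. The order also depends on the exon lengths used, since in CPM SRF (mean of 91.3) stood above IER2 (80.2) in NS shRNA cells. With shRNA #1 the order opened with KLF6 at 107 and IER5 at 59.8 per kilobase, and EGR1 at 18.2 stood above KLF2 at 4.51. SRF and IER2, both at 29.9 per kilobase, overlapped there. With shRNA #2 the order opened with IER5 at 197 and KLF6 at 50.1, and EGR1 at 4.47 stood above KLF2 at 2.91. EGR2 (0.0486 to 0.164 per kilobase) and EGR3 (0.0418 to 0.108) overlapped in these cells.

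**Figure D2:**
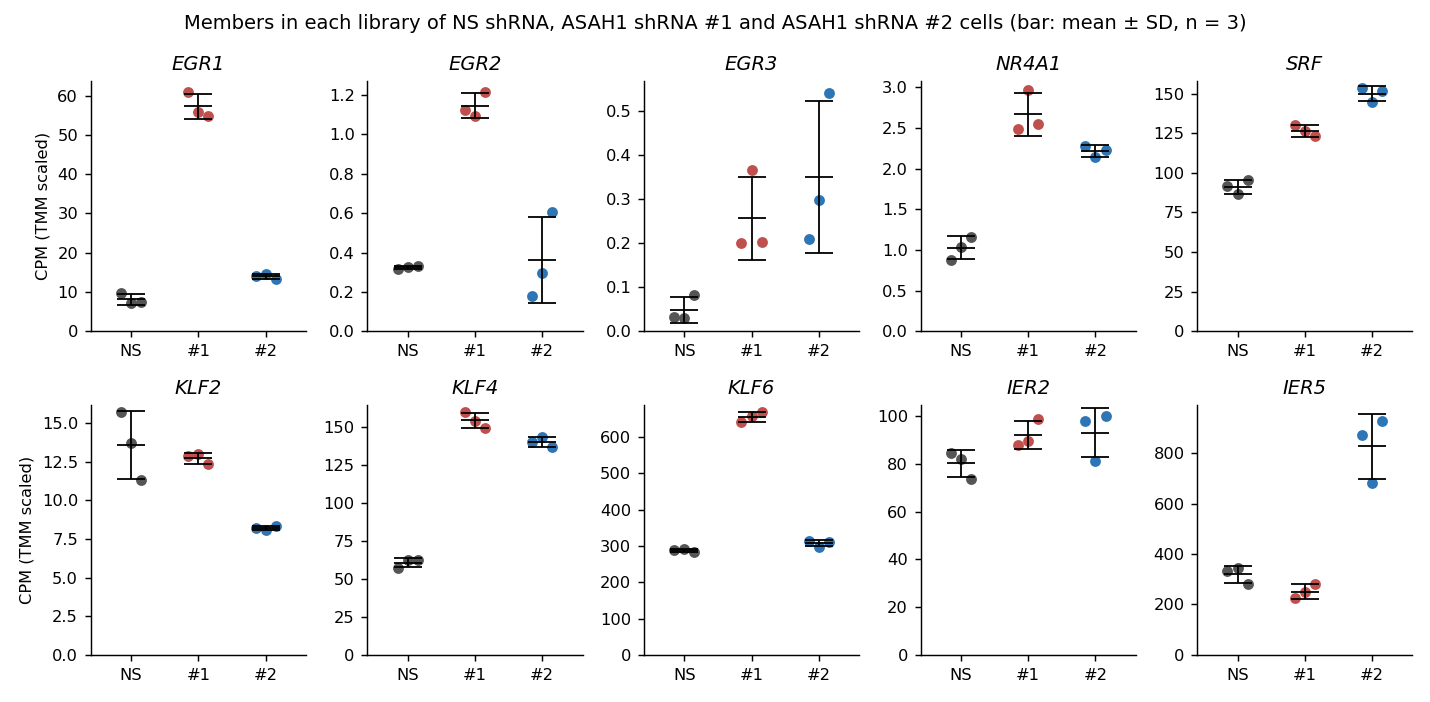
CPM (TMM scaled) of each member in the 9 libraries, with NS shRNA in grey, ASAH1 shRNA #1 in red and ASAH1 shRNA #2 in blue. Points are libraries and bars are the mean ± SD (n = 3). EGR1 is highest with shRNA #1, IER5 with shRNA #2, and KLF4, NR4A1 and SRF are above NS shRNA with both hairpins.

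The comparison with NS shRNA addressed whether these genes differed in cells with lowered ASAH1, with 2 independent hairpins. Where the hairpins disagree, the lowering of ASAH1 and effects of a single hairpin cannot be told apart. With shRNA #1, 7 of the 9 tested members were higher than in NS shRNA cells, IER5 was lower and KLF2 did not pass the test. Over all 14341 genes tested with shRNA #1, 32.8% were called higher and 33.3% lower, at a limma adjusted p below 0.05. With shRNA #2, 5 of the 9 were higher (EGR1, NR4A1, SRF, KLF4 and IER5), KLF2 was lower, and EGR2, KLF6 and IER2 did not pass. Over all 14250 genes tested with shRNA #2, 33.5% were called higher and 33.4% lower. The median log2 fold change of the 9 members was 1.18 with shRNA #1 and 0.71 with shRNA #2, beside 0.0013 and 0.013 over all genes tested. The scaling of the libraries holds the medians over all genes near 0, so they do not show how unusual the members' medians are. Because about 2 in 3 genes were called in either direction, a call alone says little, and the sizes below carry the description. Both comparisons use the same 3 NS shRNA libraries and are therefore not independent of each other.

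**Figure D3:**
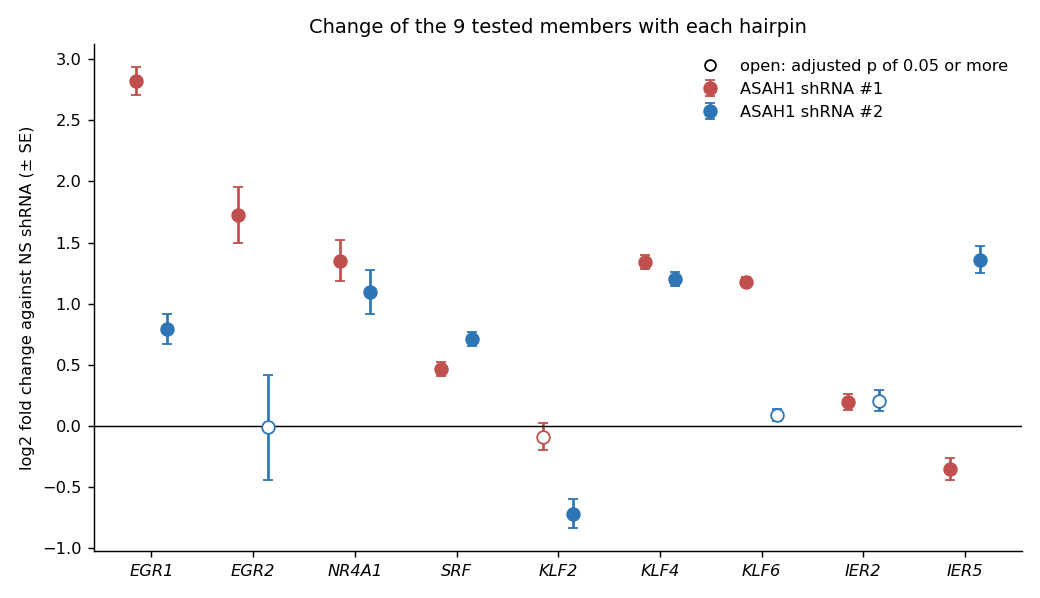
Log2 fold change of the 9 tested members against NS shRNA, with its standard error, for ASAH1 shRNA #1 in red and ASAH1 shRNA #2 in blue (3 libraries per group). Filled points have a limma adjusted p below 0.05. EGR1, NR4A1, SRF and KLF4 lie above 0 with both hairpins, and IER5 lies below 0 with shRNA #1 and above 0 with shRNA #2.

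EGR1, a zinc finger factor and the most studied immediate early gene of the ERK pathway, was higher with both hairpins and showed the largest rise of the 9 with shRNA #1. The gene lies on chr5:138465479-138469303 of hg38 and its main transcript has 2 exons. It had 9.78, 7.11 and 7.46 CPM in the NS shRNA libraries, 61.0, 55.9 and 54.8 with shRNA #1 and 14.1, 14.6 and 13.4 with shRNA #2. The 3 groups did not overlap, and the shRNA #1 libraries stood far above the other 6. The fold was 7.07 with shRNA #1 (log2 fold change of 2.82 ± 0.11 (SE), limma adjusted p = 7.34e-08) and 1.74 with shRNA #2 (0.80 ± 0.12, adjusted p = 0.000178).

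The size of the rise of EGR1 differed between the hairpins. Compared directly, shRNA #2 cells had a log2 ratio of -2.04 to shRNA #1 cells (95% interval -2.26 to -1.83, edgeR adjusted p = 1.86e-08), which is a level 4.11-fold higher with shRNA #1. ASAH1 itself was lower with shRNA #2, as given above.

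EGR2, a close relative of EGR1 known from nerve myelination and lymphocytes, rose with shRNA #1. Its gene lies on chr10:62811996-62819167, and the tables held only 10 to 12 reads of it per NS shRNA library, 28 to 45 with shRNA #1 and 6 to 28 with shRNA #2. In CPM these were 0.315, 0.326 and 0.332 for NS shRNA, 1.12, 1.10 and 1.22 for shRNA #1 and 0.180, 0.298 and 0.607 for shRNA #2. The shRNA #1 libraries were above all others, whereas the shRNA #2 libraries lay on both sides of the NS shRNA libraries. The log2 fold change was 1.73 ± 0.23 with shRNA #1 (limma adjusted p = 0.000115) and -0.0097 ± 0.43 with shRNA #2 (adjusted p = 0.985). The hairpins differed by a log2 ratio of -1.60 (95% interval -2.31 to -0.89, edgeR adjusted p = 0.00114). The value with shRNA #2 lies within the spread of its 3 libraries and changed its sign with the tool (0.22 by edgeR) and with the library left out (0.37 without replicate 1 of shRNA #2, -0.44 without replicate 3). Without replicate 3 of shRNA #2 the log2 ratio between the hairpins was -2.24.

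EGR3, the third EGR factor, was too rare to pass the low-value filter. Its reads were 1, 1 and 3 in the NS shRNA libraries, 5, 15 and 7 with shRNA #1 and 7, 11 and 25 with shRNA #2, so that every knockdown library had more reads than any NS shRNA library. Corrected for depth, the summed reads gave a ratio to NS shRNA of 5.44 with shRNA #1 (27 against 5 reads, exact 95% interval 2.07 to 18.1) and 7.50 with shRNA #2 (43 against 5 reads, 2.98 to 24.2). These intervals cover counting error only. With no filter, the limma log2 fold changes were 1.89 (adjusted p = 0.00412) and 2.29 (adjusted p = 0.00152), on a scale that understates the change of rare genes. The hairpins did not pass the test against each other with no filter (edgeR log2 ratio of 0.44 ± 0.49 (SE), adjusted p = 0.504).

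NR4A1, an orphan nuclear receptor induced by growth factors and calcium, was higher with both hairpins. It lies on chr12:52022832-52059507 and had 0.881, 1.04 and 1.16 CPM in NS shRNA libraries, 2.49, 2.97 and 2.55 with shRNA #1 and 2.28, 2.14 and 2.23 with shRNA #2. All 6 knockdown libraries were above all 3 NS shRNA libraries, and the shRNA #2 libraries lay below those of shRNA #1. The log2 fold change was 1.35 ± 0.17 with shRNA #1 (limma adjusted p = 8.31e-05) and 1.10 ± 0.18 with shRNA #2 (adjusted p = 0.000280). Between the hairpins the log2 ratio was -0.29 (95% interval -0.60 to 0.03, edgeR adjusted p = 0.101), so a difference of up to 0.60 in favour of shRNA #1 is within the interval. With upper quartile scaling in place of TMM the ratio was -0.36 and passed the test (adjusted p = 0.0436).

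The relatives of these receptors and the partners of the EGR factors did not all follow. NR4A3, a sister of NR4A1, had 0.178 to 0.252 CPM in NS shRNA libraries, 1.19 to 1.72 with shRNA #1 and 0.270 to 0.461 with shRNA #2. With at most 9 reads in any NS shRNA library, it passed the filter on low values through the knockdown libraries. It had a log2 fold change of 2.50 ± 0.27 with shRNA #1 (limma adjusted p = 3.17e-05) and 0.64 ± 0.37 with shRNA #2 (adjusted p = 0.149), and the hairpins differed by -1.90 (edgeR adjusted p = 5.83e-05). NR4A2 was at -0.06 ± 0.15 with shRNA #1 (limma adjusted p = 0.721) and fell with shRNA #2, to -0.56 ± 0.16 (adjusted p = 0.0101). NAB1 and NAB2 bind EGR factors and repress their targets. Their log2 fold changes with shRNA #1 were -0.40 ± 0.06 (limma adjusted p = 0.000395) and -0.22 ± 0.07 (adjusted p = 0.0151), and neither passed with shRNA #2, at -0.12 ± 0.07 and -0.07 ± 0.07 (adjusted p = 0.127 and 0.450). EGR4 had at most 7 reads in any library and was not tested. Of the 4 tested genes of this group, 1 was thus higher and 2 lower with shRNA #1, and 0 higher and 1 lower with shRNA #2. These counts stand beside 32.8% higher and 33.3% lower over all genes with shRNA #1, and 33.5% and 33.4% with shRNA #2.

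SRF, the factor that binds the CArG boxes shown above, was higher with both hairpins. It lies on chr6:43171269-43181506, with 7 exons in its main transcript. It had 91.5, 86.7 and 95.7 CPM in NS shRNA libraries, 130, 126 and 123 with shRNA #1 and 154, 145 and 152 with shRNA #2. The groups stood in steps without overlap, with shRNA #2 on top. The fold was 1.38 with shRNA #1 (log2 fold change of 0.47 ± 0.05, limma adjusted p = 5.05e-05) and 1.64 with shRNA #2 (0.71 ± 0.06, adjusted p = 2.04e-06), and the hairpins differed by a log2 ratio of 0.23 (95% interval 0.12 to 0.35, edgeR adjusted p = 0.00201).

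SRF works with ternary complex factors of the ELK family, which answer to ERK, and with the MRTF coactivators, which answer to actin. Of these cofactors, ELK3 rose by 0.44 ± 0.05 with shRNA #1 (limma adjusted p = 6.22e-05) and 0.40 ± 0.05 with shRNA #2 (adjusted p = 7.33e-05) on the log2 scale. MRTFB (listed as MKL2) was lower with both, at -0.63 ± 0.09 (limma adjusted p = 0.000256) and -0.84 ± 0.11 (adjusted p = 4.93e-05). ELK4 rose with shRNA #2 (0.29 ± 0.06, limma adjusted p = 0.00162) and was at -0.05 ± 0.05 with shRNA #1 (adjusted p = 0.463). MRTFA (listed as MKL1) rose by 0.19 ± 0.07 with shRNA #1 (limma adjusted p = 0.0341) and was at 0.14 ± 0.09 with shRNA #2 (adjusted p = 0.161). ELK1 passed with neither, at -0.09 ± 0.07 and -0.16 ± 0.08 (limma adjusted p = 0.268 and 0.0949), and MYOCD, the muscle coactivator, had no read in any library. In all, 2 of the 5 tested cofactors were called higher and 1 lower with each hairpin. The shares over all genes were 32.8% higher and 33.3% lower with shRNA #1, and 33.5% and 33.4% with shRNA #2.

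The genes that MRTF and SRF drive together, mostly of actin and adhesion, were called in both directions. Of 17 such genes tested with shRNA #1, 4 were higher, 11 lower and 2 not called, with a median log2 fold change of -0.21, beside 32.8% higher and 33.3% lower over all genes. With shRNA #2, 4 of 16 were higher, 8 lower and 4 not called, with a median of -0.21, beside 33.5% and 33.4%. The 7 genes lower in both comparisons included ACTB, the cytoplasmic beta-actin, at -0.89 ± 0.05 with shRNA #1 (limma adjusted p = 8.83e-07) and -0.52 ± 0.05 with shRNA #2 (adjusted p = 1.10e-05). CNN2, MYL9 and VCL, which encode a calponin, a myosin light chain and vinculin, were lower with both hairpins as well, at -0.76, -0.32 and -0.31 with shRNA #1 and -0.50, -0.71 and -0.70 with shRNA #2. FHL2 and ZYX, which encode LIM domain proteins of adhesions, were the 2 genes higher with both, FHL2 by 1.12 and 1.26 and ZYX by 0.60 and 0.43. The other calls upward were CNN1 and TAGLN with shRNA #1 and CCN1 and FLNA with shRNA #2, and those that did not pass were TPM4 and FLNA with shRNA #1 and ACTA2, MYH9, TPM4 and ACTN1 with shRNA #2. CNN1 had at most 1 read in any NS shRNA library and passed the filter on low values only through the shRNA #1 libraries. These are named after their values were seen, to complete the counts, and the value of ACTB was known when the list was drawn up.

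KLF4, a Krüppel-like zinc finger factor known from epithelial differentiation and pluripotency, was higher with both hairpins. It lies on chr9:107484852-107490482 and had 57.4, 62.4 and 62.4 CPM in NS shRNA libraries, 160, 154 and 149 with shRNA #1 and 140, 143 and 137 with shRNA #2. The lowest knockdown library, at 137 CPM, stood far above the highest NS shRNA library. The fold was 2.53 with shRNA #1 (log2 fold change of 1.34 ± 0.05, limma adjusted p = 6.93e-08) and 2.30 with shRNA #2 (1.20 ± 0.06, adjusted p = 6.76e-08). The hairpins differed by a log2 ratio of only -0.15 (95% interval -0.26 to -0.04, edgeR adjusted p = 0.0221), and without the filter on low reads this did not pass (adjusted p = 0.0579). It did not pass either without replicate 1 of shRNA #1 (-0.12, adjusted p = 0.0813) or without replicate 1 or 3 of shRNA #2 (adjusted p = 0.0569 and 0.0747).

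KLF6, a ubiquitous member of the same family and the second of the members by per-kilobase level in NS shRNA cells, rose with shRNA #1. It lies on chr10:3775996-3785281 and had 288, 293 and 283 CPM in NS shRNA libraries, 640, 657 and 669 with shRNA #1 and 313, 299 and 310 with shRNA #2. The shRNA #2 libraries were just above the NS shRNA libraries without overlap, and the shRNA #1 libraries were far above both. The fold was 2.27 with shRNA #1 (log2 fold change of 1.18 ± 0.04, limma adjusted p = 2.46e-08). With shRNA #2 the log2 fold change was 0.09 ± 0.05 and did not pass (95% interval -0.02 to 0.20, adjusted p = 0.123). The small offset depends on the scaling, since with upper quartile scaling the value was 0.00020 (adjusted p = 0.997). The hairpins differed by a log2 ratio of -1.10 (95% interval -1.19 to -1.02, edgeR adjusted p = 1.87e-09), the most precisely measured difference between hairpins among the members.

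KLF2, known from endothelium and quiescent T cells, was the member that fell with shRNA #2. It lies on chr19:16324826-16328685 and had 15.7, 13.7 and 11.3 CPM in NS shRNA libraries, 12.9, 13.0 and 12.3 with shRNA #1 and 8.23, 8.08 and 8.32 with shRNA #2. The shRNA #2 libraries were below all others, and the shRNA #1 libraries lay inside the range of the NS shRNA libraries. The log2 fold change was -0.72 ± 0.12 with shRNA #2 (limma adjusted p = 0.000290) and -0.09 ± 0.11 with shRNA #1 (95% interval -0.34 to 0.17, adjusted p = 0.518). Without replicate 1 of NS shRNA, the highest of the 9 libraries, the latter was 0.026 (adjusted p = 0.832). The hairpins differed by a log2 ratio of -0.64 (95% interval -0.88 to -0.41, edgeR adjusted p = 0.000275).

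IER5, an intronless gene whose product takes part in the heat shock response, was the member that went in opposite directions. It lies on chr1:181088700-181092900 and had 334, 345 and 280 CPM in NS shRNA libraries, 224, 250 and 280 with shRNA #1 and 871, 682 and 927 with shRNA #2. The lowest shRNA #2 library stood far above every other library, whereas the highest shRNA #1 library and the lowest NS shRNA library almost met. With shRNA #2 the fold was 2.57 (log2 fold change of 1.36 ± 0.11, limma adjusted p = 2.14e-06), and with shRNA #1 its level was 0.784 times that of NS shRNA (-0.35 ± 0.09, adjusted p = 0.00742). The direct comparison gave a log2 ratio of 1.71 (95% interval 1.44 to 1.97, edgeR adjusted p = 3.29e-07), a level 3.26-fold higher with shRNA #2.

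IER2, a relative of IER5 and a classical serum response gene, differed little between the groups. It lies on chr19:13150411-13154911 and had 84.7, 82.2 and 73.8 CPM in NS shRNA libraries, 88.0, 89.6 and 98.7 with shRNA #1 and 98.1, 81.3 and 99.9 with shRNA #2. The shRNA #1 libraries lay just above the NS shRNA libraries, and 1 shRNA #2 library fell among them. The log2 fold change was 0.19 ± 0.07 with shRNA #1 (limma adjusted p = 0.0259) and 0.21 ± 0.09 with shRNA #2 (adjusted p = 0.0542). The first call was lost in 1 limma fit of all 9 libraries (adjusted p = 0.0550), in which the second passed (adjusted p = 0.0422). It was also lost without replicate 2 or 3 of NS shRNA (adjusted p = 0.0529 and 0.0685) or replicate 3 of shRNA #1 (0.14, adjusted p = 0.0839). Without replicate 2 of shRNA #2, the value with that hairpin was 0.30 (adjusted p = 0.00389). The hairpins gave a log2 ratio of 0.0035 to each other (95% interval -0.18 to 0.19, edgeR adjusted p = 0.973).

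Taking the hairpins against each other over the members, 2 of the 9 tested were higher with shRNA #2 (IER5 and SRF), 5 were lower (EGR1, EGR2, KLF2, KLF4 and KLF6) and NR4A1 and IER2 did not pass. Over all 14381 genes tested in this comparison, 31.4% were called higher and 32.5% lower, at an edgeR adjusted p below 0.05. The members' median log2 ratio was -0.29, beside -0.0046 over all genes, which the scaling holds near 0. The directions of the called members, in this comparison and in those with NS shRNA, did not change with TMM, median-ratio or upper quartile scaling.

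Among 25 other immediate early genes, most were higher with both hairpins. With shRNA #1, 23 of the 25 were higher, 1 lower and 1 not called, around a median log2 fold change of 1.30, beside 32.8% higher and 33.3% lower over all genes. ARC, 1 of the 23, had at most 6 reads in any NS shRNA library and passed the filter on low values through the shRNA #1 libraries. With shRNA #2, 18 of 24 tested genes were higher, 4 lower and 2 not called, and the median was 0.90, beside 33.5% and 33.4% over all genes. Between the hairpins, 5 of 25 were higher with shRNA #2 and 16 lower, with a median log2 ratio of -0.46, beside 31.4% and 32.5% over all genes. Completing the counts after the values were seen, the genes called lower with shRNA #2 were IER5L, RHOB, SGK1 and ZFP36L2, those not called were ZFP36L2 with shRNA #1 and JUNB and ZFP36 with shRNA #2, and those higher with shRNA #2 than with shRNA #1 were CSRNP1, IER5L, KLF10, MCL1 and PHLDA1. The list holds DUSP2 and DUSP5, which the study picked from these libraries, and is not independent evidence of its direction for them. The list was drawn up with earlier results of these data known, so its counts are a description and not an independent test.

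The 4 genes of that list with the largest mean rise were ATF3, FOSB, PPP1R15A and KLF10. ATF3, a stress-induced factor, rose from 6.08 to 8.18 CPM in NS shRNA libraries to 80.9 to 83.5 with shRNA #1 and 33.2 to 36.3 with shRNA #2 (log2 fold changes of 3.53 ± 0.10 and 2.29 ± 0.11, limma adjusted p = 9.49e-09 and 5.54e-08). FOSB, an AP-1 subunit, rose by 2.89 ± 0.23 and 2.47 ± 0.29 (limma adjusted p = 4.23e-06 and 2.97e-05), from at most 15 reads in any NS shRNA library. PPP1R15A, a phosphatase subunit of the stress response, rose by 2.82 ± 0.06 and 2.51 ± 0.08 (limma adjusted p = 3.89e-09 and 5.07e-09). KLF10, a Krüppel-like factor induced by TGF-beta, rose by 2.15 ± 0.06 and 2.46 ± 0.06 (limma adjusted p = 6.85e-09 and 1.25e-09). The single gene of the list lower in both comparisons was IER5L, a relative of IER5, with 52.0 to 53.2 CPM in NS shRNA libraries, 16.0 to 17.4 with shRNA #1 and 18.0 to 21.0 with shRNA #2 (limma log2 fold changes of -1.65 ± 0.06 and -1.46 ± 0.07, adjusted p = 3.46e-08 and 8.30e-08).

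**Figure D4:**
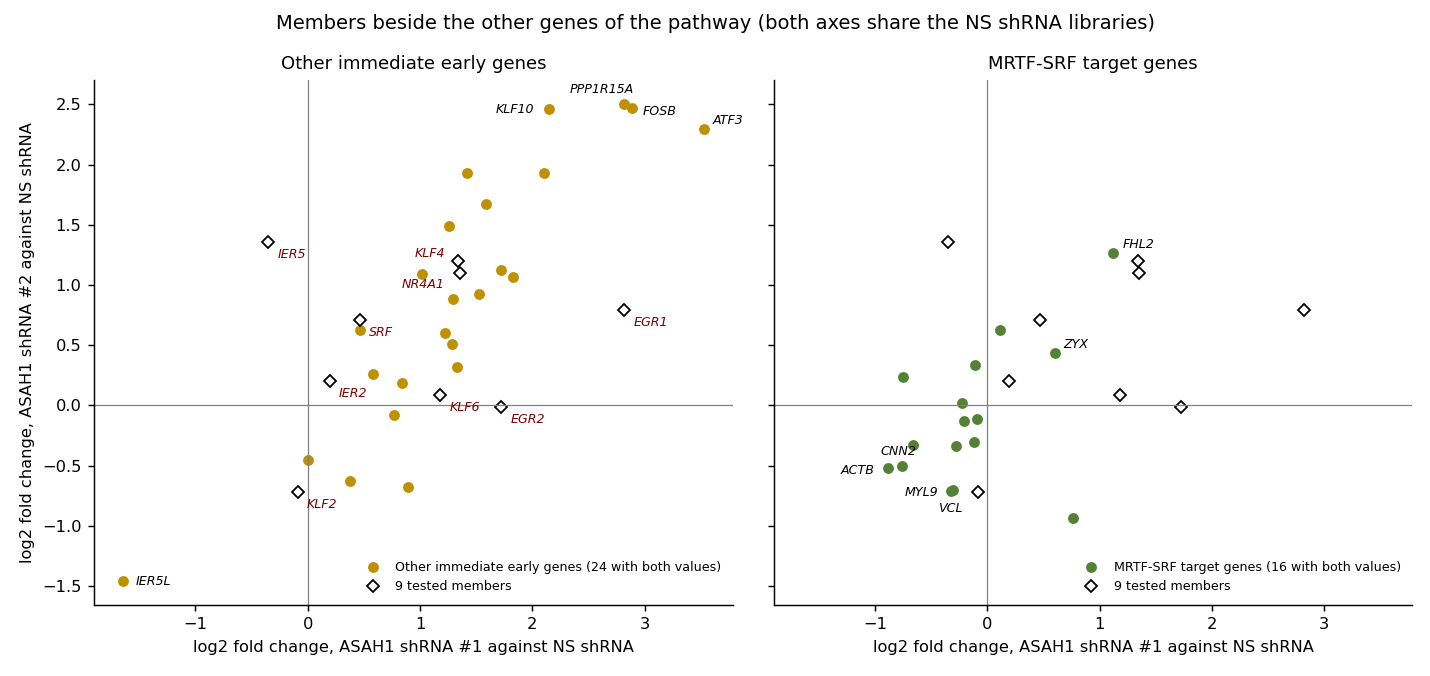
Log2 fold change against NS shRNA with ASAH1 shRNA #1 (x axis) and ASAH1 shRNA #2 (y axis), for the 24 other immediate early genes (left, ochre) and the 16 MRTF-SRF target genes (right, green) with a value in both, beside the 9 tested members (open diamonds). Both axes use the same NS shRNA libraries. Most ochre points lie above 0 on both axes, 7 MRTF-SRF targets including ACTB were called lower on both, and IER5 is the one diamond that is below 0 on x and far above 0 on y.

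The pattern of EGR1, high with shRNA #1 and slightly raised with shRNA #2, was shared by genes of other families. Among 11630 genes with a mean of at least 100 reads, the 5 whose log2 level followed EGR1 most closely over the 9 libraries were GPATCH4, UVRAG, RRP36, H1F0 and ELOVL1, with Pearson r from 0.998 to 0.995. In all, 24 genes had an r of at least 0.99. The 9 libraries form 3 groups, so such an r mostly says that the log2 levels of the 3 groups are spaced alike, whatever their size. The changes of these genes were smaller than that of EGR1, from 0.42 for RRP36 to 0.83 for H1F0 with shRNA #1 and from 0.13 for RRP36 to 0.19 for H1F0 with shRNA #2, as log2 fold changes. None of the 5 is a member of the lists described here.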

How the data were processed

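RNA of 9 MDA-MB-231 libraries was sequenced, and the labels give 3 biological replicates per group. Per the labels the authors used Trimmomatic 0.36, STAR 2.7.1a on hg38, HTSeq and DESeq2 1.28, in 2 tables that each pair a hairpin with NS shRNA. A further methods paragraph of the study names other tools, and the labels name both oligo-dT selection and ribosomal RNA depletion. The values in the deposited tables are a normalized signal, which is a read count divided by a size factor. The deposited log2 fold changes, their standard errors, the Wald statistic (a score) and the p-values hold the authors' own comparison and were not used. Whole reads were recovered for 100% of values (tolerance 0.05), 0 NS shRNA reads differed between the tables, and 0 per-sample columns were unmatched. 28 symbols turned into dates were taken from the other table.

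Each hairpin was compared with NS shRNA by limma 3.58.1 with a trend on log2(value + 1), where the mean value was at least 10, and the hairpins with each other by edgeR 4.0.16 (quasi-likelihood, TMM) on all 9 libraries' reads, two-sided, with Benjamini-Hochberg adjustment at 0.05. Alternatives were DESeq2 1.42.0 and edgeR on the reads, pseudocounts of 0.1 and 5, no filter, a mean of at least 50, no trend, upper quartile scaling, 1 fit of all 9 libraries or of the 6 knockdown libraries, the replicate number as a block and each library left out. R 4.3.3, Python 3.11.15, pandas 2.3.3 and matplotlib 3.10.9 were used. The fits were tested on simulated data. CPM values use TMM, and exon lengths and positions are those of GENCODE on hg38. Replicates differed by more than counting error, with a chi-square per gene of 5.26 to 23.2. Where cultures were not separate, p-values measure only the spread between libraries. The members and lists were chosen with earlier results of these data known. All members are named. Of lists under 10 genes every gene is named, except markers, which are given as the check of the cell line, and of longer ones up to 4 per direction called in both comparisons, by mean log2 fold change.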

Additional observations from a re-analysis of the deposited data

Results flagged for a closer look

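For 7 members the level differed between the hairpins, by a direct edgeR test of shRNA #2 against shRNA #1 with 3 libraries in each. The log2 ratios were -2.04 for EGR1, -1.60 for EGR2, -1.10 for KLF6, -0.64 for KLF2 and -0.15 for KLF4, all lower with shRNA #2, and 1.71 for IER5 and 0.23 for SRF, both higher with shRNA #2. IER5 moved in opposite directions against NS shRNA, and the other 6 differed in the size of the change or in whether it passed the test. Over all genes tested between the hairpins, 31.4% were called higher and 32.5% lower, so the number of members called says little. The call of KLF4 was lost under some alternatives, given below. ASAH1 also differed between the hairpins (log2 ratio of -0.89). Neither its part in these differences nor that of other effects of the hairpins was tested. With 3 libraries per group, single libraries were not tested for standing apart.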

How the results depend on the processing

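Of 27 values (each tested member in each comparison), 20 kept their direction and their side of the threshold and 7 did not. This covers every alternative in which a value was tested, and EGR2 was not tested at a mean of at least 50. The 12 counts of calls, over all genes and over the members, stayed within 1.5 times their value. Members called higher ran from 6 to 8 with shRNA #1 and from 5 to 6 with shRNA #2, and members lower between the hairpins from 4 to 6, counts with no filter including EGR3. With upper quartile scaling, 4004 genes were higher and 5522 lower with shRNA #2, and 3741 and 5475 between the hairpins, against 4780 and 4758, and 4511 and 4677, as reported. For the 7 values that did not, the cause was not tested, except where libraries were left out. IER2 with shRNA #1 kept a log2 fold change of 0.19 but missed the threshold without the trend, in the fit of all 9 libraries and with the replicate block (adjusted p = 0.0644, 0.0550 and 0.0915), and ranged from 0.14 to 0.24 with a library left out. IER2 with shRNA #2 passed by DESeq2 (0.21, adjusted p = 0.0458) and in the fit of all 9 libraries (0.21), and was 0.12 with upper quartile scaling (adjusted p = 0.257), with a leave-one-out range of 0.15 to 0.30. IER2 between the hairpins was -0.072 with upper quartile scaling and -0.011 with a mean of at least 50 reads, and ranged from -0.048 to 0.092 with a library left out. EGR2 with shRNA #2 was 0.020 with a pseudocount of 5, 0.22 by edgeR and 0.18 by DESeq2, with a range of -0.44 to 0.37. KLF2 with shRNA #1 ranged from -0.21 to 0.026, the latter without NS shRNA replicate 1. KLF4 between the hairpins missed the threshold with no filter (-0.14, adjusted p = 0.0579) and with the replicate block (-0.15, adjusted p = 0.0523), and ranged from -0.17 to -0.12. NR4A1 between the hairpins passed with upper quartile scaling (-0.36).

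Replicate numbers are shared by the groups, but libraries of the same number were not more alike than others. A pairing of the libraries in another order was not tested. The deviations of same-numbered libraries correlated from -0.59 to 0.47 over 9 pairs, and those of other pairs from -0.40 to 0.52 over 18. The replicate block changed no call of a member other than those of IER2 with shRNA #1 and KLF4 between the hairpins. With it, 4120 genes were called higher and 4117 lower with shRNA #1. Depth limits EGR2, EGR3 and NR4A1 among the members, and EGR3 was tested with no filter alone.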
